A study of Mus musculus with 1479 samples.

Results

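The genes described here are 8 components and regulators of the complement system, C1ra, C1s1, C4b, C2, C3, Cfb, Serping1 and Cd55, as measured in single cells of the mouse urinary bladder. They were chosen by name and are 8 of 46517 gene rows in the count table, and their reads were followed over all 1479 cells and over the 11 clusters that the labels of the cells give. Complement is a cascade of blood and tissue proteins that tags microbes and damaged cells. In the classical branch the proteases C1r and C1s cleave C4 and C2, whose fragments form an enzyme that cleaves C3, while in the alternative branch factor B takes the place of C2 and amplifies the cleavage of C3. C1 inhibitor, the product of Serping1, blocks C1r and C1s, and CD55 sits on the cell surface and takes the C3-cleaving enzymes apart. The liver makes most of the circulating proteins, and connective tissue cells are known as a local source.

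All mice were adult males of 10 to 20 weeks. The labels name 5 lines: Acta2GFP, Cspg4dsRED, PdgfraGFP and PdgfrbGFP, in which a fluorescent protein follows the promoter of the named gene, and C57BL6 without a reporter. No treatment or deletion is named for any line, and per the study's methods all were backcrossed to C57Bl6/J. The labels do not name the animals, so the line was taken as the replicate, and p-values measure only the spread between lines. A reporter marks each cell that uses its promoter and not 1 cell type, the sort excluded CD31+ cells, elastase was added for Acta2GFP bladders, and combined strains were also used, so the line, the dissociation and the sort cannot be told apart. PdgfrbGFP gave 54.8% of the cells, and 13.7% were Cspg4dsRED, 12.8% C57BL6, 9.94% PdgfraGFP and 8.72% Acta2GFP, on 6 plates. Cluster 10, which the study took as vascular mural cells (pericytes and smooth muscle cells), held 8.45% of the cells. Cluster 5, taken as fibroblasts beneath the epithelium, held 76 cells, and the other 9 clusters, taken as fibroblasts, held 1278.

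Marker genes were set beside the labels. The clusters were drawn from the same values, and the study named many of these markers from data that include these cells. The levels therefore describe the clusters and do not test the labels. The summed level of 10 fibroblast markers was 1230 in cluster 10 and between 8943 in cluster 4 and 25766 in cluster 11 over the fibroblast clusters, and that of 9 mural markers was 11642 in cluster 10 and at most 628, in cluster 5, elsewhere. A level here is the number of reads of a gene in every 500000 reads of mouse genes. Of 13 macrophage and leukocyte markers, which include the C1q genes, 0 reached a level of 10 in any cluster, their sums ran from 4.99 to 24.7, and the 10.8% of cells with at least 10 such reads were left out in 1 alternative. Total reads per cell, spike-in reads included, ran from 50276 to 1446059, with a median of 214893 over all cells and of 130406 in cluster 10.

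Several members overlap other annotated genes. C2 and Cfb are neighbours on the minus strand of chromosome 17 in GRCm38, with 85 bases between them, and share no exon with each other. C4b lies on the same strand 112491 bases further, and the 3 genes span 169886 bases. The annotated read-through gene Gm20547 runs over both C2 and Cfb and holds 42.8% of the exon bases of C2 and 79.5% of those of Cfb. Its reads were almost a sum of the other 2: over 1479 cells they equalled 0.709 per C2 read plus 0.928 per Cfb read, with an R squared of 0.999 across cells, which are no independent replicates. C2 also shares 4.16% of its exon bases with Zbtb12 on the opposite strand, whose reads in all were 0.596% of those of C2. The antisense gene Gm16567 lies wholly within exons of C1s1, over 576 bases, and its reads were 31.7% to 34.1% of those of C1s1 in every cluster. How the counting treated shared bases and strand is not given in the sources used here and was not tested. Reads of C2, Cfb and C1s1 therefore cannot be told apart from those of Gm20547 and Gm16567 over the shared bases.

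The members differed widely in level. Per kilobase of exon, so that genes can be compared, the mean level over lines in the fibroblast clusters was 1001 for Serping1, 163.8 for C1s1, 82.2 for C1ra, 78.8 for Cd55, 61.97 for C3, 45.6 for Cfb, 16.7 for C2 and 15.9 for C4b. Serping1 thus stood far above the rest. It had at least 1 read in 1479 of 1479 cells, while C2 had one in 773, C4b in 844 and Cfb in 1068. Its median was 0.401 reads per exon base, 526 cells had more than 0.5 and the highest cell had 2336 reads over 2325 exon bases. Whether this density of reads narrowed the differences of Serping1 between groups was not tested.

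**Figure D1:**
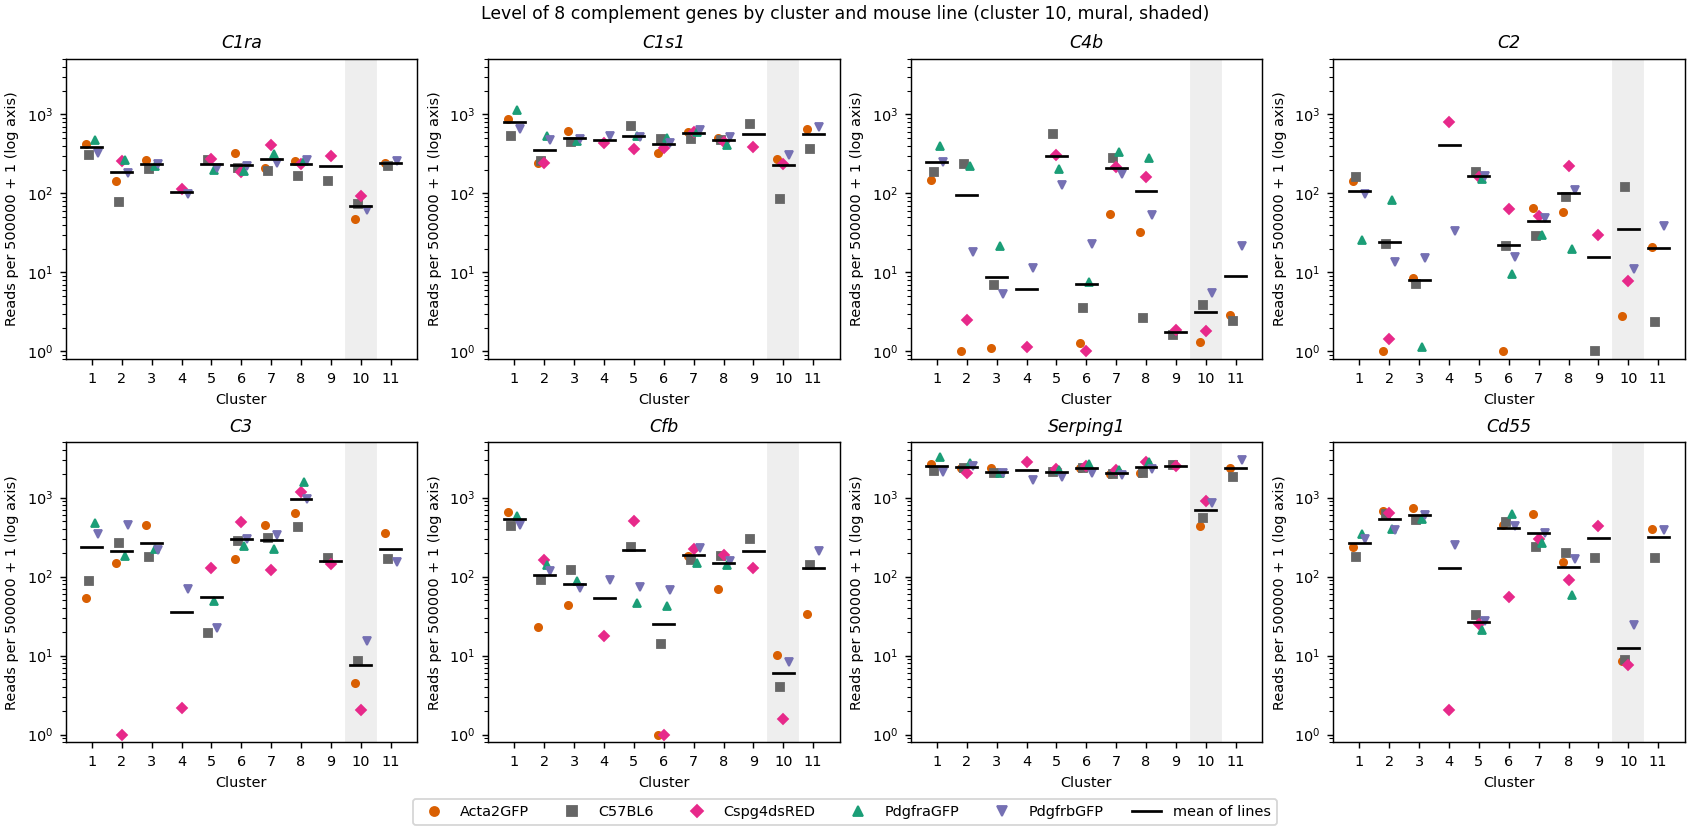
Level of each member by cluster. The vertical log axis gives reads per 500000 endogenous reads plus 1, each point is the mean over the cells of 1 mouse line with at least 3 cells in the cluster, and the black bar is the mean of the lines. The mean of Serping1 lies between 2071 and 2551 over the fibroblast clusters, that of C4b spans from 0.729 to 296.7 among them, and cluster 10 is shaded.

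C1ra and C1s1 encode the proteases that start the classical cascade, and both were read in almost every fibroblast. The genes lie 6901 bases apart on chromosome 6, on opposite strands. C1ra had a level of 245.1 ± 28.97 (SD, n = 5 lines) in the fibroblast clusters. Acta2GFP had 261.7, Cspg4dsRED 271.8, C57BL6 196.6, PdgfraGFP 249.2 and PdgfrbGFP 246.3. C1s1 had 512 ± 74.9 (SD, n = 5 lines), from 406 in Cspg4dsRED to 606 in Acta2GFP. Both were highest in cluster 1, with 382 ± 79.7 for C1ra and 795 ± 256.6 for C1s1 (SD, n = 4 lines). C1ra was lowest among fibroblast clusters in cluster 4, with 103.8 ± 11.6 (SD, n = 2 lines), and C1s1 in cluster 2, with 348 ± 141.2 (SD, n = 5 lines). Between neighbours in the order of levels the lines overlapped, except that both lines of cluster 4 lay above all 4 of cluster 10 for C1ra.

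C4b encodes complement component C4 and, with C2, supplies the enzyme made by the classical branch. Both were read in part of the clusters and in part of the cells. C4b levels in cluster 5 were 555 in C57BL6, 303.9 in Cspg4dsRED, 126.9 in PdgfrbGFP and 200.7 in PdgfraGFP. In cluster 1 they were 145.2 in Acta2GFP, 187.3 in C57BL6, 401.5 in PdgfraGFP and 248.6 in PdgfrbGFP, and in cluster 7 the mean was 210.2 ± 104.7 (SD, n = 5 lines). Clusters 3, 4, 6, 9 and 11 had means between 0.729 and 7.85, and no line of them passed 21.5, so that their lines lay below every line of clusters 1, 5 and 7. Clusters 2 and 8 were split by line: in cluster 2, C4b was 230.7 in C57BL6 and 217.9 in PdgfraGFP but 17.01 in PdgfrbGFP, 1.46 in Cspg4dsRED and 0 in Acta2GFP. Where C4b was read, it was read in part of the cells. After each cell was thinned to 50000 reads, 41.9% of the cells of cluster 1 had at least 10 C4b reads (exact 95% interval 32.3% to 51.9%), 38.2% of cluster 5 (27.2% to 50.02%) and 41.7% of cluster 7 (35.2% to 48.4%), against 1.17% of cluster 3 (0.319% to 2.96%) and 0 of 91 cells of cluster 9, where a limit of 3 counts allows a share of up to 3.30% and the exact interval reaches 3.97%. These intervals cover counting error only. In cluster 7 the tenth of cells with the highest C4b held 54.7% of its level, and in clusters 1 and 5 it held 46.1% and 51.9%.

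C2 was highest in cluster 4, at 791 in Cspg4dsRED and 32.4 in PdgfrbGFP. The first value comes from 17 cells and the second from 4. In cluster 5 the 4 lines lay close together, with 187.3 in C57BL6, 161.6 in Cspg4dsRED, 162.3 in PdgfrbGFP and 150.5 in PdgfraGFP. Clusters 1 and 8 followed with means of 105.8 ± 60.3 (SD, n = 4 lines) and 99.1 ± 76.8 (SD, n = 5 lines), and cluster 3 was lowest with 7.00 ± 5.84 (SD, n = 4 lines). At least 10 thinned reads of C2 were present in 76.2% of the cells of cluster 4 (52.8% to 91.8%), 51.3% of cluster 5 (39.6% to 62.96%) and 3.79% of cluster 3 (2.03% to 6.39%). Summed over all cells of a cluster, C2 reads were 91.98% of the reads of C2 and its neighbour Cfb in cluster 4 and 59.9% in cluster 5, and 11.95% to 37.7% in the other fibroblast clusters. The lines did not share this order: C2 levels exceeded Cfb levels in 1 of the 2 lines of cluster 4 and in 2 of the 4 lines of cluster 5, where the mean over lines was higher for Cfb (216.5) than for C2 (165.4).

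**Figure D2:**
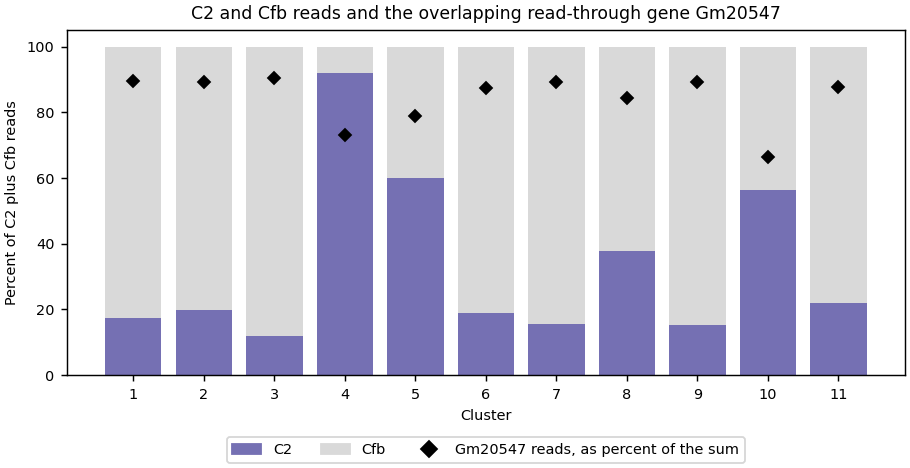
Reads of C2 (purple) and Cfb (grey) as a percent of their sum in each cluster, summed over cells, with the reads of the overlapping gene Gm20547 as a percent of the same sum (diamonds). C2 makes up 91.98% in cluster 4 and 11.95% in cluster 3, and the Gm20547 reads fall between 66.3% and 90.4% of the sum.

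C3 is the protein on which all branches of the cascade meet, and Cfb encodes factor B of the alternative branch. C3 was highest in cluster 8, with 1581 in PdgfraGFP, 1192 in Cspg4dsRED, 959 in PdgfrbGFP, 642 in Acta2GFP and 428 in C57BL6. Cluster 8 lay above the other clusters in mean, 960 ± 454 (SD, n = 5 lines), but its lowest line was below the highest lines of clusters 1, 2, 3, 6 and 7. Most other fibroblast clusters had means between 156.4 and 295.8, and clusters 5 and 4 were the low ones with 54.2 ± 50.9 (SD, n = 4 lines) and 34.98 ± 47.8 (SD, n = 2 lines). In cluster 5 the lines were 18.5 in C57BL6, 127.8 in Cspg4dsRED, 21.5 in PdgfrbGFP and 48.8 in PdgfraGFP, and the Cspg4dsRED value came from 3 cells. C3 was spread unevenly over cells, up to 5494 in cluster 8 with a median of 708.

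Cfb was highest in cluster 1, with 661 in Acta2GFP, 444 in C57BL6, 591 in PdgfraGFP and 445 in PdgfrbGFP. Among the other fibroblast clusters 1 line reached this range: Cspg4dsRED in cluster 5 had 509, from 3 cells. The share of cells with at least 10 thinned Cfb reads was 87.6% in cluster 1 (79.8% to 93.2%), 49.1% in cluster 7 (42.5% to 55.8%) and 16.6% in cluster 6 (11.6% to 22.7%). Cluster 6 was lowest in mean with 24.2 ± 29.1 (SD, n = 5 lines), and its Acta2GFP and Cspg4dsRED lines, of 6 and 3 cells, had no Cfb read.

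The regulators went separate ways. As a share of the reads of mouse genes, Serping1 was nearly even over the fibroblast clusters. It ran from 2071 ± 146.6 (SD, n = 5 lines) in cluster 7 to 2551 ± 500 (SD, n = 4 lines) in cluster 1, a ratio of 1.23 between the highest and the lowest mean. Per spike-in read it was not even, with means from 0.261 in cluster 4 to 0.876 in cluster 2. Cd55 ran from 599 ± 102.6 (SD, n = 4 lines) in cluster 3 to 25.7 ± 4.95 (SD, n = 4 lines) in cluster 5. In cluster 5 its lines were 31.8 in C57BL6, 23.98 in Cspg4dsRED, 26.9 in PdgfrbGFP and 20.1 in PdgfraGFP, which lay below every line of clusters 1, 2, 3, 6, 7, 8, 9 and 11. In cluster 4 the 2 lines disagreed, with 1.05 in Cspg4dsRED and 252.6 in PdgfrbGFP. The share of cells with at least 10 thinned Cd55 reads was 95.9% in cluster 3 (93.2% to 97.8%), 44.5% in cluster 8 (37.2% to 52.04%) and 6.58% in cluster 5 (2.17% to 14.7%).

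**Figure D3:**
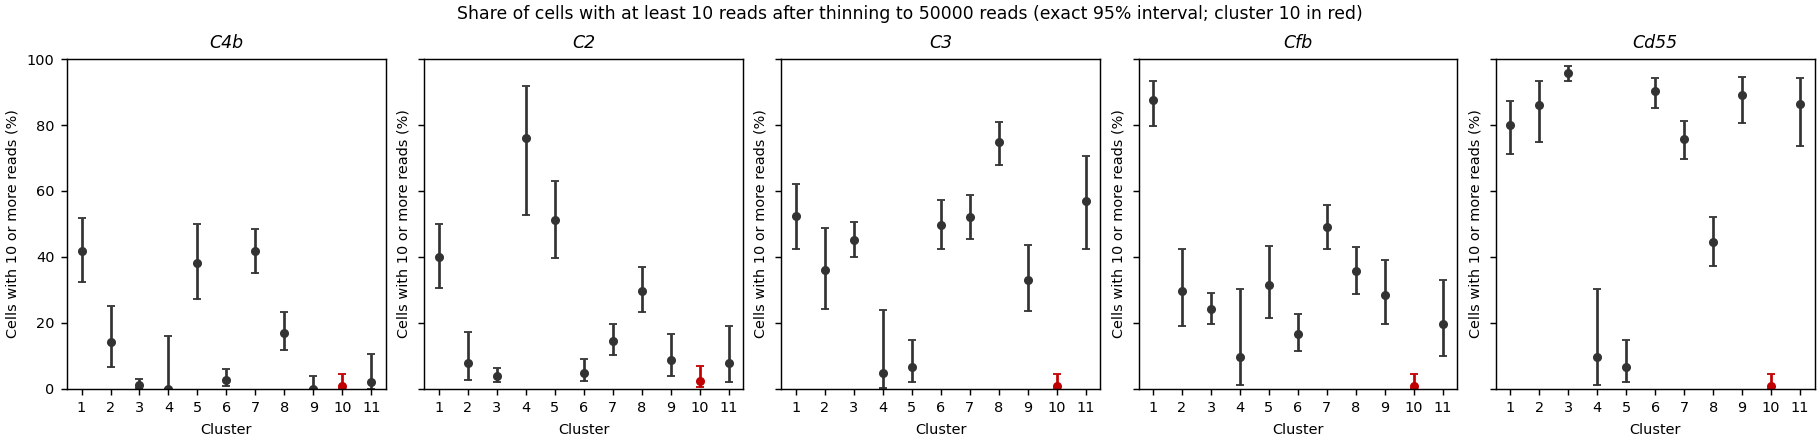
Share of cells with at least 10 reads of C4b, C2, C3, Cfb and Cd55 in each cluster after thinning each cell to 50000 reads, with exact 95% binomial intervals. Cluster 10, in red, lies between 0.8% and 2.4% for these 5 genes, whereas Cd55 reaches 95.9% in cluster 3 and C2 76.2% in cluster 4.

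The first comparison asked how the members separate mural cells from fibroblasts. By share of mouse-gene reads, C3, C4b, Cfb and Cd55 in cluster 10 were at 2.07%, 2.34%, 3.86% and 2.99% of their fibroblast level. On the same scale C1ra, C1s1 and Serping1 kept 27.6%, 43.8% and 29.6%. For scale, Pdgfra, a receptor gene that marks fibroblasts, was at 2.09% in cluster 10. C3 was 3.45 in Acta2GFP, 7.51 in C57BL6, 1.07 in Cspg4dsRED and 14.4 in PdgfrbGFP, against 227.5 to 382 in the fibroblasts of the 5 lines. Cd55 was 7.68, 7.90, 6.58 and 23.6 in the same 4 lines, against 321.6 to 506. Cfb was 9.07, 3.01, 0.595 and 7.21, against 86.6 to 156.7, and C4b was 0.296, 2.88, 0.808 and 4.47, against 16.5 to 189.5. None of these ranges met, and 28.8% of cluster 10 cells had any C3 read at equal depth (21.1% to 37.6%) while 0.8% had 10 or more. Whether such single reads came from the cells themselves or from carried-over RNA was not tested. Per spike-in read, C1ra, C1s1 and Serping1 kept smaller fractions in cluster 10 than by share of mouse-gene reads. C1ra was 0.0144 in cluster 10 against 0.0709 in the fibroblast clusters, C1s1 0.0300 against 0.149 and Serping1 0.115 against 0.666. C1s1 did not stand out from C1ra on this scale.

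C1s1 and Serping1 were read in mural cells at substantial levels. Serping1 was 431 in Acta2GFP, 545 in C57BL6, 911 in Cspg4dsRED and 867 in PdgfrbGFP in cluster 10, against 2088 to 2578 in fibroblasts, and C1s1 was 274.5, 83.3, 232.4 and 307.7, against 406 to 606. C1ra was 46.4, 72.5, 91.5 and 60.2, against 196.6 to 271.8. The ranges of these 3 genes did not meet either, yet 85.6% of cluster 10 cells (78.2% to 91.2%) had at least 10 thinned Serping1 reads and 28% had as many for C1ra (20.3% to 36.7%). C2 was the member without a common direction: it was 120 in the 3 cells of C57BL6 and 1.78, 6.66 and 9.97 in Acta2GFP, Cspg4dsRED and PdgfrbGFP, against 28.4 to 147.03 in fibroblasts.

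Counts summed per line were tested with edgeR's quasi-likelihood method with the line as a block, and calls needed an adjusted p (Benjamini-Hochberg) under 0.05 with a log2 fold change of 2 or more in either direction. SE, here and below, is the absolute log2 fold change divided by the square root of the test's F statistic. It is an approximate error and not one that edgeR reports. In cluster 10, 5 of 8 members were called lower, beside 4.02% of the 16092 genes tested, and 0 were called higher. These were C3 (log2 fold change -6.13, SE 0.78, adjusted p = 3.07e-05), Cd55 (-5.33, SE 0.63, adjusted p = 1.23e-05), C4b (-5.20, SE 1.18, adjusted p = 0.0100), Cfb (-5.10, SE 1.04, adjusted p = 0.00428) and C1ra (-2.16, SE 0.56, adjusted p = 0.0246). Serping1 was lower with an adjusted p of 0.000289 but a log2 fold change of -1.65, short of the fold required. C1s1 (-1.30, adjusted p = 0.0698) and C2 (-3.10, adjusted p = 0.147) missed the p threshold. The median log2 fold change was -4.10 over the members and -0.93 over all genes tested, and with the median gene set to 0, which shifts every value by the latter, C3, Cfb and Cd55 stayed called. C3, Cfb and Cd55 were called under each of 15 alternatives. C4b was called under 13, and without Cspg4dsRED its adjusted p was 0.0908. C1ra was called under 8, and its adjusted p by edgeR was 0.103 without Acta2GFP, 0.123 without Cspg4dsRED and 0.0945 without PdgfrbGFP. C2 was called lower without C57BL6 (log2 fold change -3.64, adjusted p = 0.0194). Because the authors drew the clusters from the same values, these tests say how far a difference repeats over lines.

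**Figure D4:**
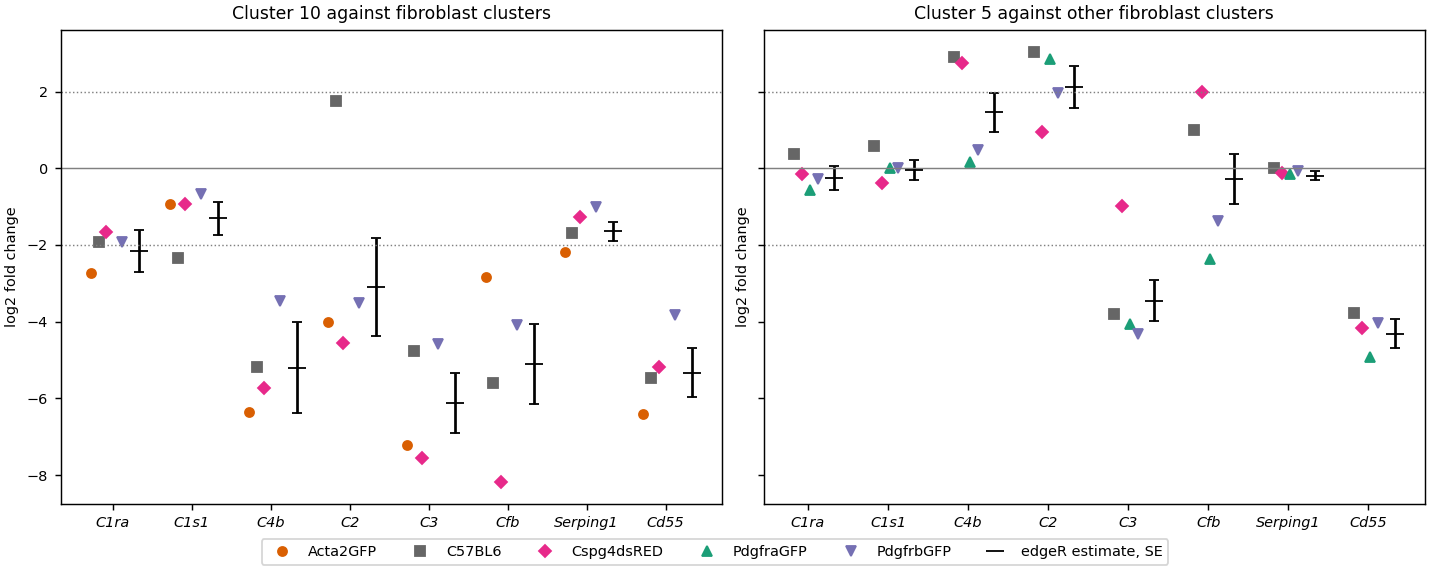
Log2 fold change of each member within each line, from summed counts, for cluster 10 against the fibroblast clusters (left) and cluster 5 against the other fibroblast clusters (right). Black bars are the edgeR estimates with an approximate SE, derived from the F statistic, and dotted lines mark 2 and -2. C3, C4b, Cfb and Cd55 lie below -2 in all 4 lines on the left, and C3 and Cd55 do so on the right apart from C3 in Cspg4dsRED at -0.99.

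The difference between mural cells and fibroblasts was also present within plates. Of 7 combinations of plate and line with at least 3 cells of cluster 10, all 7 had lower levels in cluster 10 than in their own fibroblasts for each member but C2, for which 6 had. The highest C3 level in cluster 10 was 40.4 and the lowest in fibroblasts 227.5. C4b in fibroblasts ran from 2.39 to 189.5 over 8 combinations, where the lowest came from 10 cells of Cspg4dsRED and the next was 16.5. In cluster 10 it reached 9.88, so that the C4b ranges overlapped across combinations.

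**Figure D5:**
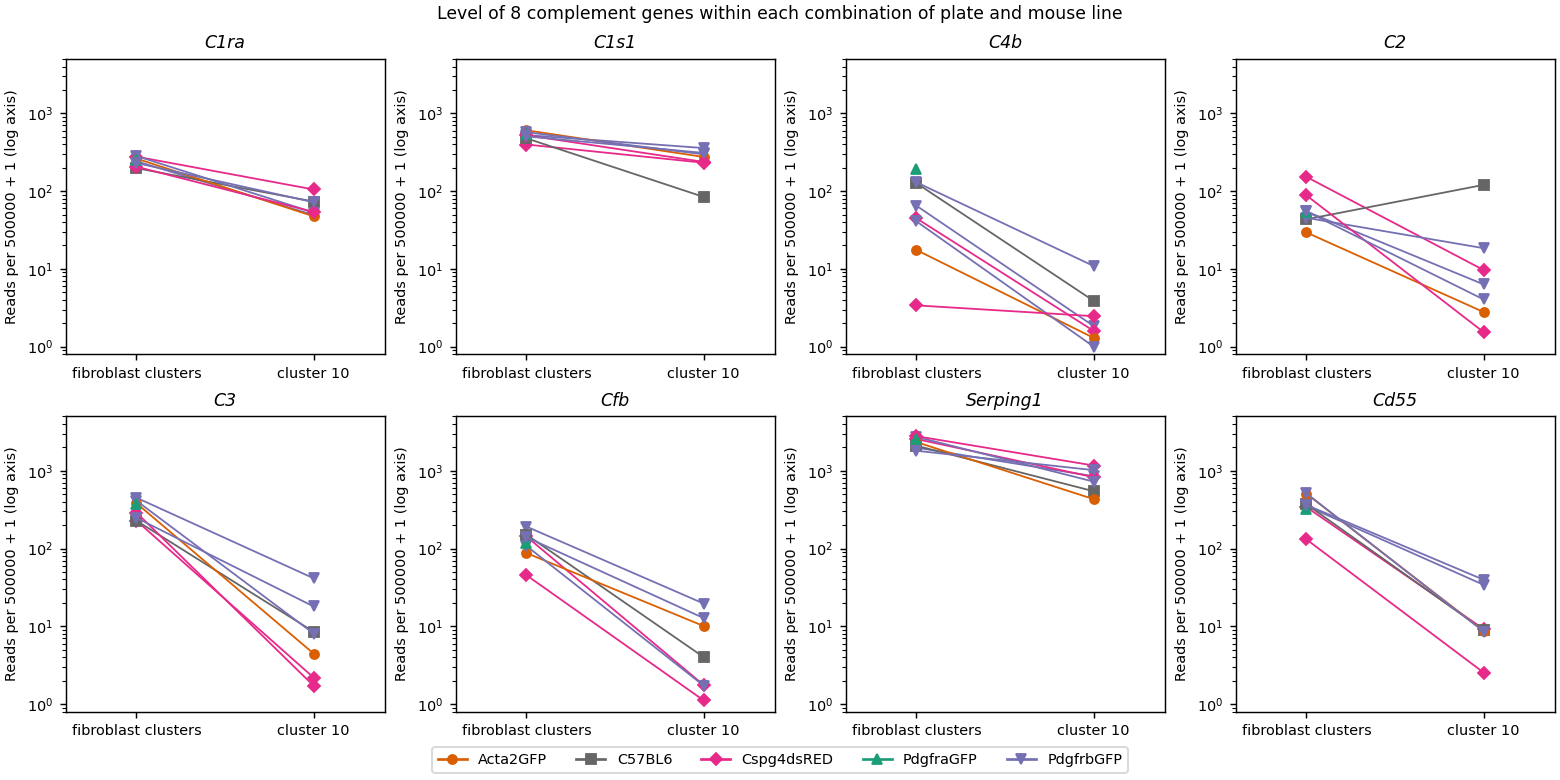
Level of each member in the fibroblast clusters (left) and in cluster 10 (right) within each combination of plate and mouse line, joined by a line where cluster 10 had at least 3 cells. The log axis gives reads per 500000 plus 1. C3 lies between 227.5 and 450 on the left and between 0.714 and 40.4 on the right, and 1 combination, C57BL6, goes up for C2.

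The second comparison set cluster 5 against the other fibroblast clusters. C3 and Cd55 were lower in cluster 5, whereas C2 and C4b had positive differences in each line that did not pass the test. Within lines, the log2 fold change of Cd55 was -3.78 in C57BL6, -4.18 in Cspg4dsRED, -4.02 in PdgfrbGFP and -4.91 in PdgfraGFP, and that of C3 was -3.79, -0.99, -4.32 and -4.06 in the same order. C2 had 3.04, 0.93, 1.97 and 2.84, and C4b had 2.89, 2.74, 0.47 and 0.15. Cfb had 1.00 in C57BL6 and 1.98 in Cspg4dsRED but -2.35 in PdgfraGFP and -1.37 in PdgfrbGFP, so its lines lay on both sides of 0. In edgeR, 2 of 8 members were called lower, Cd55 (-4.32, SE 0.38, adjusted p = 0.000281) and C3 (-3.45, SE 0.53, adjusted p = 0.00831), beside 0.465% of 16145 genes. Both were called under each of 15 alternatives. C2 (2.12, SE 0.54, adjusted p = 0.132) and C4b (1.45, SE 0.52, adjusted p = 0.239) were not called by edgeR. C2 was called higher under 7 of 15 alternatives, among them without the 3 cells of Cspg4dsRED (2.71, adjusted p = 0.0189). The median log2 fold change was -0.22 over the members and -0.77 over all genes.

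C3 and Cd55 were the members called lower in both comparisons, which share the fibroblasts of the other 9 clusters and are not independent. The 250 bases before the start of these genes, from RefSeq on GRCm38.p6, are shown because both genes had the same direction in clusters 5 and 10. Capitals mark matches, on either strand, to letters that NF-kB (10 bases, GGGA at the start and CC at the end), C/EBP (TTGCNNAA) or Sp1 (the GC box GGGCGG) are known to bind; STAT letters (TTCNNNGAA) were searched too. The C3 stretch is chr17:57228137-57228386 and that of Cd55 is chr1:130462745-130462994, both on the minus strand and printed 5′ to 3′.
C3: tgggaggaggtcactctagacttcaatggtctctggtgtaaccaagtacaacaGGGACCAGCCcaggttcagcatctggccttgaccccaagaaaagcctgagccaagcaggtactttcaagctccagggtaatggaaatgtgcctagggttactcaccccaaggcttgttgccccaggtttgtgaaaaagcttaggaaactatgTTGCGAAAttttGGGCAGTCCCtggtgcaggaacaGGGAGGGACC
Cd55: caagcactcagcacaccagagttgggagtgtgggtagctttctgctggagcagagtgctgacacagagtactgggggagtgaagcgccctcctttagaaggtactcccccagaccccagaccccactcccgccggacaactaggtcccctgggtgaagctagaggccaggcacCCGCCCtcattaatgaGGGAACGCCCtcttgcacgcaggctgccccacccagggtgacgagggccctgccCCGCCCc
C3 held 3 NF-kB-type matches and 1 C/EBP-type match, and Cd55 held 1 NF-kB-type match and 2 GC boxes. Of 32851 promoters of this length, 17.6% held the NF-kB-type letters, 9.56% the C/EBP-type letters, 32.7% the GC box and 7.02% the STAT-type letters, so the matches describe the sequence and do not show binding. C1s1, not called in either cluster, held 1 C/EBP-type and 1 NF-kB-type match over its 2 entries, and C1ra, called lower in cluster 10, held none of the motifs searched. These were the other members with an entry, and C4b, C2, Cfb and Serping1 are not shown.

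The third comparison took each of the other 9 fibroblast clusters against the rest, with calls at a log2 fold change of 1 or more in either direction. Cluster 4, tested in the 2 lines Cspg4dsRED and PdgfrbGFP, had 2 of 8 members called lower, C3 (-5.46, SE 0.93, adjusted p = 1.83e-06) and Cd55 (-4.23, SE 1.04, adjusted p = 0.00873), beside 0.388% of 13664 genes. Within its lines C3 had log2 fold changes of -8.17 and -3.44, and Cd55 had -8.95 and -0.42, so that the size for Cd55 rests on the 17 Cspg4dsRED cells. Over 8 alternatives the calls held in 6 for C3 and in 4 for Cd55. Cluster 4 also showed the highest C2 level, yet C2 was not called (2.25, SE 0.74, adjusted p = 0.220).

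Cluster 9, tested in C57BL6 and Cspg4dsRED, had 2 of 8 members called lower, C4b (-7.20, SE 1.69, adjusted p = 0.0381) and C2 (-4.64, SE 1.05, adjusted p = 0.0234), beside 0.0378% of 13219 genes. C4b was 0.606 and 0.852 in its 2 lines, and C2 was 0 in the 3 cells of C57BL6 and 28.9 in the 85 of Cspg4dsRED. The C2 call was held by 1 of 9 alternatives and was lost when cluster 4 was left out of the other side, and the C4b call was held by 3 of 9.

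In clusters 1, 2, 3, 6, 7, 8 and 11 edgeR called 0 of 8 members, and 0.0433%, 0.00647%, 0.00608%, 0.0246%, 0.407%, 0.0183% and 0.0209% of all genes in that order. At an unadjusted p under 0.05 there were 7, 2, 4, 2, 4, 2 and 2 members, beside 9.26%, 23.3%, 6.11%, 9.01%, 10.2%, 8.92% and 5.35% of all genes, so that the 2 of 8 in cluster 2 lay near the background. DESeq2 called 1, 0, 2, 2, 1, 2 and 0 members, beside 3.42%, 14.1%, 1.19%, 2.9%, 4.9%, 4.78% and 0.251% of all genes. Limma-voom called 3, 0, 1, 1, 1, 3 and 0 members, beside 0.247%, 0%, 0.292%, 0.369%, 1.95%, 0.536% and 0%. Cfb in cluster 1 came closest (2.37, SE 0.34, adjusted p = 0.0547). It was higher in each of 4 lines, with log2 fold changes of 3.90 in Acta2GFP, 1.44 in C57BL6, 2.27 in PdgfraGFP and 1.81 in PdgfrbGFP, and 10 of 14 alternatives called it, with an adjusted p of 0.157 without PdgfrbGFP and 0.265 without PdgfraGFP. C3 in cluster 8 was higher in each of 5 lines, by 0.44 to 2.97 (estimate 1.63, SE 0.35, adjusted p = 0.396), and C4b in cluster 7 had an estimate of 2.35 (SE 0.58, adjusted p = 0.182), also short of the threshold. C4b was low in clusters 3 and 6, with estimates of -4.44 (SE 0.71, adjusted p = 0.240) and -4.70 (SE 0.94, adjusted p = 0.216).

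A single test over all 9 clusters asked whether a member differed anywhere among them. It called 2 of 8 members, C4b (adjusted p = 0.00592) and Cfb (adjusted p = 0.0316), beside 2.54% of 14776 genes. C3 (adjusted p = 0.117), Cd55 (0.198), C2 (0.208), C1ra (0.244), Serping1 (0.359) and C1s1 (0.412) were not called by edgeR, whereas limma-voom called all 8, beside 6.87% of all genes, and DESeq2 called 5, beside 6.09%. Without Acta2GFP, C57BL6 or PdgfraGFP the edgeR test called 1 member, without PdgfrbGFP 2 and without Cspg4dsRED 3. Each of these fits called a smaller share of all genes than the 2.54% with all lines.

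The other genes of the pathway were a list of 46, of which 12 had a mean level of at least 10 in some cluster and 34 did not. Among those below 10 everywhere were the C1q genes, which supply the recognition part of C1, the lectin-pathway proteases Masp1 and Masp2, factor D (Cfd) and properdin (Cfp) of the alternative branch, and the receptor gene C3ar1. Cfi, which encodes factor I, the protease that inactivates C3b and C4b, had a level of 0 in each cluster. C7, a component of the membrane attack complex, had mean levels between 62.5 and 374 in the fibroblast clusters without cluster 5 and 3.61 ± 1.63 (SD, n = 4 lines) in cluster 5. The 2 lines of cluster 4 disagreed for C7, with log2 differences from the other fibroblast clusters without cluster 5 of -8.72 and -0.09. The partners of C7 were low: C8a, C8b and C9 had means of at most 0.0578, and C6 reached 11.6, in cluster 6, through the 3 cells of Cspg4dsRED at 55.3.

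In cluster 10, 27 of these 46 genes were tested and 4 were called lower and 1 higher, with a median log2 fold change of -1.35. Over all genes tested, 4.02% were called lower and 2.17% higher, and the median was -0.93. Among the lower ones were C7 (-7.02) and the collectins Colec10 (-6.79) and Colec12 (-5.57), which bind sugars. Colec10 lay near the floor, with a highest cluster mean of 10.6 and an adjusted p of 0.0479 by edgeR. The higher one was Clu (2.39), which encodes clusterin, an inhibitor of the terminal complex. It was 440 in Acta2GFP, 81.5 in C57BL6, 564 in Cspg4dsRED and 440 in PdgfrbGFP in cluster 10, against 43.4 to 76.8 in the fibroblasts of those 4 lines, although cluster 8 alone had a mean of 201.7. In summed counts, Clu was higher in 3 of the 4 lines and lower in 1, with a lowest log2 difference of -0.21. In cluster 5, 27 were tested and 2 called lower, among them C7 (-6.06, adjusted p = 0.000491 by edgeR), with a median of -1.05, against 0.465% called lower and a median of -0.77 over all genes. Among the other clusters and the test over all 9, Colec12 was the gene of this list called, lower in cluster 7 (-1.06) and different over all 9 (adjusted p = 0.00504).

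Over 32 sums of a line and a fibroblast cluster, the member levels were compared with 9736 genes. These sums share lines and plates, so the correlations are descriptions. C3 was most like C7 (Pearson r = 0.889), and Sparcl1 (0.811) was also among its nearest genes. C4b was most like Serpina3n (0.759), Csrp2 (0.709) and Plac8 (0.707). Cd55 was most like Pi16 (0.932) and Col14a1 (0.878), after its antisense neighbour Gm16083 (0.964), which shares 2.1% of the exon bases of Cd55. Cfb was most like Gm20547 (0.838), which holds 79.5% of its exon bases, then Timp3 (0.732) and Olfml2b (0.722), and Serping1 most like Dcn (0.821), mt-Ts1 (0.796) and AY036118 (0.792). Among the members themselves the largest values were C3 with Cd55 (0.671, Spearman's rho 0.196), C4b with Cfb (0.623, rho 0.640) and C2 with Cd55 (-0.677, rho -0.755).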

How the data were processed

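Single cells from the bladders of adult male mice were sequenced by Smart-seq2, which covers whole transcripts and carries no molecular identifiers. Per the study's methods, the authors trimmed reads, mapped them to GRCm38 with TopHat2, counted them per gene with featureCounts and removed cells of 50000 reads or fewer. The deposited values are raw read counts for 46517 genes and 92 spike-in rows in 1479 cells.

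Counts were summed per mouse line and class, for lines with at least 3 cells in both classes. They were tested with edgeR 4.0.16 (quasi-likelihood, TMM scaling, low-count filter, line as a block) and Benjamini-Hochberg adjustment over all genes tested, in R 4.3.3, after a test on simulated data. DESeq2 1.42.0 and limma 3.58.1 were alternatives, beside other scalings, filters, units and left-out lines. Leaving out cluster 4 was chosen after seeing the data. Lines were taken as blocks on the assumption that they are different mice. PdgfrbGFP lay on 3 plates and Cspg4dsRED on 2, and 2 plates held 2 lines each. Levels are means over cells and then over lines. Shares were taken after thinning to 50000 reads of mouse genes, spike-ins left out, without 6 cells below that number, of which 2 were in cluster 4, with exact Clopper-Pearson 95% intervals. Gene positions are from GENCODE M21. Members and lists were chosen with earlier results of these data known, and named genes are the members, the 46 listed complement genes and the 3 genes most like a member. Some of these genes are not reported here.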

Additional observations from a re-analysis of the deposited data

Results flagged for a closer look

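Of 80 groups of 4 or 5 lines, 10 had 1 line far from the others by Dixon's criterion, which chance meets in about 1 in 20 groups. In cluster 10, C2 was 119.6 in C57BL6, from 3 cells, against at most 9.97 in the other lines, and its log2 difference from fibroblasts was 1.75 there against at most -3.52. C1s1 had a log2 difference of -2.33 in the same 3 cells, against -0.94 in the next line. Cd55 in cluster 10 was 23.6 in PdgfrbGFP, next to 7.90. In cluster 5 the log2 difference of C3 was -0.99 in Cspg4dsRED, from 3 cells, against -3.79 in the next line. In cluster 3, Acta2GFP was highest for C3, at 449.1 next to 221.2, and for Serping1, at 2403 next to 2074. C1ra in cluster 6 was 318.5 in Acta2GFP, next to 222.1. C1s1 in cluster 7 was 491.7 in C57BL6, below 594.5. C2 in cluster 2 was 81.1 in PdgfraGFP, next to 21.9.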

How the results depend on the processing

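No fold change of a called member turned its direction under any alternative run. In cluster 10 the 5 calls among members, beside 6.20% of all genes, became 3 with the median gene set to 0 (4.83%). They became 3 to 6 when 1 line was left out (2.90% to 5.89%), with 3 without Cspg4dsRED (2.90%). Over all genes that centring moved the share of calls that were higher from 35.1% to 69.02% in cluster 10 and from 39.02% to 70.9% in cluster 5. DESeq2 called 18.6% of genes in cluster 10 against 6.20%, and 8.68% in cluster 5 against 0.762%. The cause was not tested. The 2 member calls in cluster 5 stayed at 2 to 3, while the share of all genes called ran from 0.596% without PdgfraGFP to 8.68% with DESeq2. The test over 9 clusters called 2 members beside 2.54% of all genes. It called 5 with DESeq2 (6.09% of genes), 8 with limma-voom (6.87%) and 6 with sums per plate and line (6.12%). When 1 line was left out it called 1 to 3, each time beside a smaller share of genes than 2.54%. The other 9 clusters together gave 4 calls among members, beside 0.14% of all tests of a gene in a cluster. They gave 16 with the median gene at 0 (1.08%), 10 with DESeq2 (3.7%) and 9 with limma-voom (0.412%). With cells thinned to equal depth they gave 9 (0.241%). With at least 10 cells per line, where fewer clusters could be fitted, the count was 0. It was 0 to 5 when 1 line was left out (0 without Cspg4dsRED, 2 without PdgfrbGFP). Without cluster 4 it was 1, but 2 of the 4 calls were those of cluster 4 itself, which then had no fit. That fall is therefore partly set by design, and the loss it can show is that of C2 in cluster 9. No share over all tests is given for the counts with at least 10 cells, a left-out line or no cluster 4. Without the replicate block of the line, members called numbered 5 in cluster 10 (10.6% of genes) and 2 in cluster 5 (2.43%). They numbered 4 in the test over 9 clusters (7.26%) and 0 in the other clusters, for which no share is given. Clusters 4 and 9 rest on 2 lines and could not be fitted with 1 left out. Levels and shares rest on sequenced reads, so intervals cover counting error only, and reads shared by overlapping genes limit C2, Cfb and C1s1.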
